A study of Mus musculus with 45 samples.

Results

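CAST/EiJ islets were compared with C57BL/6J islets on the high-fat diet, 8 libraries against 8 of the 45 in the series. The libraries were taken by their labels, not by measured values: strain CAST/EiJ or C57BL/6J and a diet with 44% fat and fiber. Each strain had 4 female (F) and 4 male (M) libraries. All 4 groups were of wild-type genotype with no treatment, ate the high-fat, high-sugar diet from 6 weeks of age and gave tissue at 15 weeks. RNA was isolated from islets of Langerhans, polyadenylated transcripts were sequenced, and the title of the series asks how genotype and diet interact in type 2 diabetes. No label names the animal, or the number of animals, behind a library, so p-values reflect only how far these libraries spread, which may be in part technical. Replicates were numbered in accession order within a group and these numbers pair no samples.

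Islets are clusters of endocrine cells in the pancreas. Beta cells make insulin and sense glucose through a transporter, glycolysis, closure of a potassium channel and calcium entry, while alpha, delta and PP cells make glucagon, somatostatin and pancreatic polypeptide. Islet cells, like most cells, also carry the interferon pathway: RNA sensors and cytokine receptors activate STAT and IRF factors, which switch on antiviral genes and the MHC class I genes that display peptides to T cells. C57BL/6J is a classical laboratory strain and CAST/EiJ is derived from wild mice of another subspecies, so their genomes differ in sequence throughout. Since the aligner and the sequence used for each strain are not known here, a difference in expression and a difference in how well reads of 1 strain were assigned cannot be told apart for any single gene.

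Total counts ran from 60703339 to 97837740 per library. Levels are given as CPM, counts relative to a library total scaled by trimmed mean of M values. The tissue label held for every library: the insulin gene Ins2 ran from 50660 to 80700 CPM over the 16 libraries and the glucagon gene Gcg from 11760 to 62330 CPM. Exocrine content varied widely within both strains. The acinar list, 32 genes of the digestive enzyme cells around islets, held from 0.126% to 20.1% of counts in CAST/EiJ (5.20% ± 6.73, SD, n = 8) and from 0.241% to 15.1% in C57BL/6J (6.01% ± 5.10, n = 8), with no difference beyond that spread (two-sided exact permutation p = 0.797). That list holds the amylase copy Amy2b, annotated as an unprocessed pseudogene, with medians of 4014 CPM in CAST/EiJ and 22.7 CPM in C57BL/6J. It lacks the amylase copies Amy2a3 (0.548 and 9161 CPM) and Amy2a4 (1.74 and 3184 CPM). The shares thus leave out amylase counts mainly of C57BL/6J, and shares with these copies were not tested.

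In 3 CAST/EiJ libraries, high-fat females 1, 2 and 4, transcripts that are otherwise near absent from the strain stood above the level in the rest. Over 14 genes picked on the 10% fat libraries alone (log2 fold change past 5 in favour of C57BL/6J, a C57BL/6J median of at least 5 CPM, under 10% of sequence shared with another gene), the median level relative to control-diet C57BL/6J islets was 10.5%, 3.90% and 5.65% in these libraries. The same measure ran from 1.13% to 2.14% in the other 12 CAST/EiJ libraries of both diets. The 10% fat libraries among them served to pick the genes, so their low level was set in advance. The high-fat libraries among them ran from 1.13% to 1.81%. In the reverse direction, 11 genes near absent from C57BL/6J stood between 0.777% and 2.53% of their CAST/EiJ level in the 16 C57BL/6J libraries, and between 1.225% and 2.175% in the high-fat ones. The cause was not tested, and results that rest on the 3 CAST/EiJ libraries are given with and without them. Without them the CAST/EiJ females are represented by 1 library, which is assumed to vary like the other groups.

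**Figure D1:**
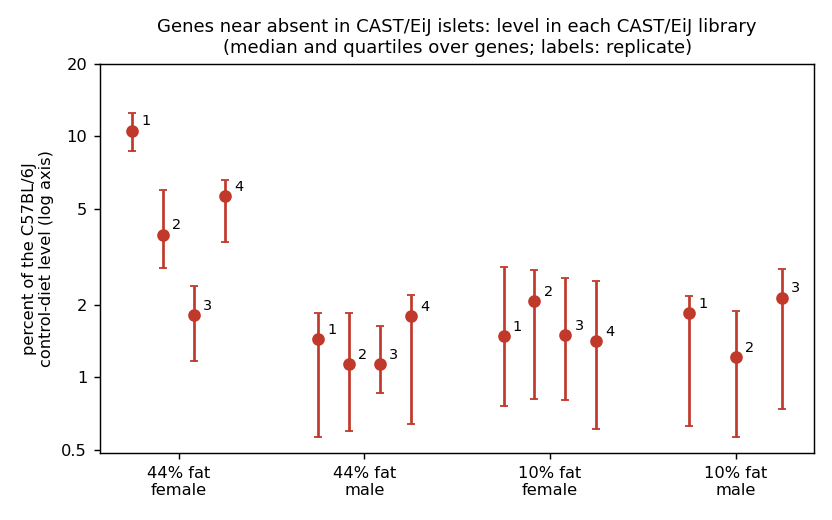
Level of 14 genes near absent from CAST/EiJ islets in each of 15 CAST/EiJ libraries, as a percent of the median of control-diet C57BL/6J libraries on a log axis, with points at the median over genes and bars at the quartiles. High-fat females 1, 2 and 4 lie at 10.5%, 3.90% and 5.65%, and the other 12 libraries between 1.13% and 2.14%.

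The strain difference was tested as the mean of the female and male differences, with positive log2 fold changes for genes higher in CAST/EiJ. Of 18824 genes tested, 10807 passed an adjusted p of 0.05 (57.4%), 5163 higher in CAST/EiJ (27.4%) and 5644 lower (30.0%). At least 2-fold differences were called for 3408 genes (18.1%), and the 8 values of one strain did not overlap with the 8 of the other for 2195 genes higher in CAST/EiJ (11.7%) and 2321 lower (12.3%). The counts for gene lists below are read against these shares. Without the 3 libraries named above, 4219 genes were higher and 4576 lower. Sample identifiers come in 3 blocks of successive numbers, called number ranges here, with 4, 7 and 5 of these libraries. Within ranges 1, 2 and 3 alone, 1037, 3552 and 2767 genes were higher and 1111, 3847 and 3130 lower.

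Genes of the interferon response formed the group with the largest share of lower members. Of 42 tested, 36 were lower in CAST/EiJ, 25 of them at least 2-fold, and 4 were higher. Their median log2 fold change was -1.23, against -0.02 over all genes tested. The strains did not overlap for 26 of the lower genes. The summed level of the list ran from 235.6 to 276.2 CPM in CAST/EiJ and from 363.2 to 443.3 CPM in C57BL/6J. The median was -1.18 in females and -1.31 in males. Without the 3 CAST/EiJ female libraries 31 were lower, and within the number ranges 16, 33 and 27 were.

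Promoters of 3 of these genes are printed because most of the list was lower and because the interferon-stimulated response element is the DNA sequence through which STAT and IRF factors act. They are the lower members with the smallest adjusted p among those with a match and with less than 50% of their 31-base words (all stretches of 31 bases in a gene's annotated transcripts) shared with other genes. Each run is the 250 bases before the transcription start, 5′ to 3′ on the gene's strand, from RefSeq in GRCm38.p6, the C57BL/6J reference. Capitals mark matches to GAAANNGAAA or, on the other strand, TTTCNNTTTC, with overlapping matches run together.
Irgm1, chr11:48871421-48871670, minus strand: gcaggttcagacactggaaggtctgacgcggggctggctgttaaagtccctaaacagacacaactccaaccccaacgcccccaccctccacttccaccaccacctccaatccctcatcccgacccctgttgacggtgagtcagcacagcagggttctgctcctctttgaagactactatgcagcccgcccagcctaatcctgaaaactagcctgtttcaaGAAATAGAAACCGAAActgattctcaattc
Gbp7, chr3:142530086-142530335, plus strand: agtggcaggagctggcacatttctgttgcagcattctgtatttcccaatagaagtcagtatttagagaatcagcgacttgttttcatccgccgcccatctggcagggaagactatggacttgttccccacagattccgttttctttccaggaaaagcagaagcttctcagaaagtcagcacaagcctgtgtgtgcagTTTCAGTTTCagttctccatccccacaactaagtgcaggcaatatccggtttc
Igtp, chr11:58199306-58199555, plus strand: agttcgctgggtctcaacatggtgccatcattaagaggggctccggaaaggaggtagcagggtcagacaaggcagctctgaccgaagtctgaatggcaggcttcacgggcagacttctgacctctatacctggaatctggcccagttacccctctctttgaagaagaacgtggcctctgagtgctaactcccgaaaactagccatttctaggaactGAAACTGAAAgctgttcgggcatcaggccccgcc
Of the 42 list genes, 30 had promoters in the table, and 18 of the 30 held a match in this window. Of 32851 promoters of the same length, 2.98% held one, and 3.46% of 27025 genes did. Among the MHC genes described next, 3 of 24 held one. The list was put together from interferon response genes, so a high share of matches was set in advance. It does not bear on the difference between the strains. A match is a description of the reference sequence and was not tested as a binding site in either strain.

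Irgm1, Gbp7 and Igtp encode interferon-induced GTPases that act against pathogens inside cells. Irgm1 ran from 3.92 to 7.39 CPM in CAST/EiJ, with a median of 5.43, and from 13.4 to 18.9 CPM in C57BL/6J, with a median of 16.5. The strains did not overlap, and the log2 fold change was -1.61 ± 0.09 (SE, 16 libraries, adjusted p = 1.62e-09). Gbp7 (-1.25 ± 0.08) and Igtp (-1.28 ± 0.08) were lower without overlap as well, with medians of 6.05 and 4.59 CPM in CAST/EiJ against 13.7 and 11.4 CPM in C57BL/6J. Gbp7 shares 14.7% of its words with other genes, chiefly with Gm43802, which had a median of 0.108 CPM in CAST/EiJ and 0 in C57BL/6J. Summed with Gm43802, Gbp7 had medians of 6.19 and 13.7 CPM. Iigp1, another GTPase of this family, ran from 0 to 0.175 CPM in CAST/EiJ, with a median of 0, and from 3.35 to 9.42 CPM in C57BL/6J. All 4 CAST/EiJ male libraries and female 3 were at 0, and only females 1, 2 and 4 held any counts. No fold is given, since a fitted fold against such a level depends on the prior count.

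The RNA sensors Ifih1 and Ddx58, the factor Irf7 and the antiviral genes Rsad2 and Oasl2 were lower as well. Ifih1, the cytoplasmic RNA sensor MDA5 (chromosome 2, 62595798 to 62646255 in GRCm38), had 3.61 to 8.52 CPM in CAST/EiJ (median 4.94) and 19.4 to 44.2 CPM in C57BL/6J (median 26.6). No library overlapped, and the log2 fold change was -2.41 ± 0.09 (adjusted p = 4.43e-11). Ddx58, the sensor RIG-I, had medians of 10.3 and 22.5 CPM in the same order, also without overlap (-1.13 ± 0.06, adjusted p = 3.31e-09). Irf7, the factor that amplifies interferon production, ran from 0.714 to 1.59 CPM in CAST/EiJ (median 0.816) and from 3.32 to 5.43 CPM in C57BL/6J (median 4.51), again apart, at -2.24 ± 0.15 (adjusted p = 1.21e-08). The antiviral genes Rsad2 (viperin, -2.06 ± 0.14), Oasl2 (-2.59 ± 0.14) and Ifi44, at medians of 3.45, 1.35 and 0.068 CPM in CAST/EiJ against 15.1, 8.71 and 3.36 CPM in C57BL/6J, did not overlap either. Isg15, a ubiquitin-like modifier, was low in both strains, from 0.121 to 0.368 CPM in CAST/EiJ and from 0.462 to 0.815 CPM in C57BL/6J.

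The exceptions were 4 genes higher in CAST/EiJ. Usp18, the protease that removes Isg15 from proteins and restrains interferon receptor signalling, ran from 32.6 to 52.7 CPM in CAST/EiJ (median 42.0) and from 13.1 to 16.7 CPM in C57BL/6J (median 15.5). The strains were apart, with a log2 fold change of 1.43 ± 0.08 (adjusted p = 2.10e-09). Mx2, an antiviral GTPase gene annotated as a polymorphic pseudogene, was higher without overlap (1.17 ± 0.17, adjusted p = 4.46e-05), with medians of 3.49 and 1.54 CPM. Oas1b, the flavivirus resistance gene of mice, stood at 0.47 ± 0.16 with overlap (adjusted p = 0.0187), and this call was lost without the 3 libraries (adjusted p = 0.0952) and with all 45 libraries in the fit (0.0501). Xaf1, a proapoptotic interferon target, had 0.45 ± 0.09. Mx1, whose allele is known to be truncated in most laboratory strains, overlapped fully, from 0.306 to 1.55 CPM in CAST/EiJ and from 0.233 to 1.52 CPM in C57BL/6J, and did not pass (0.09 ± 0.44, adjusted p = 0.876).

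**Figure D2:**
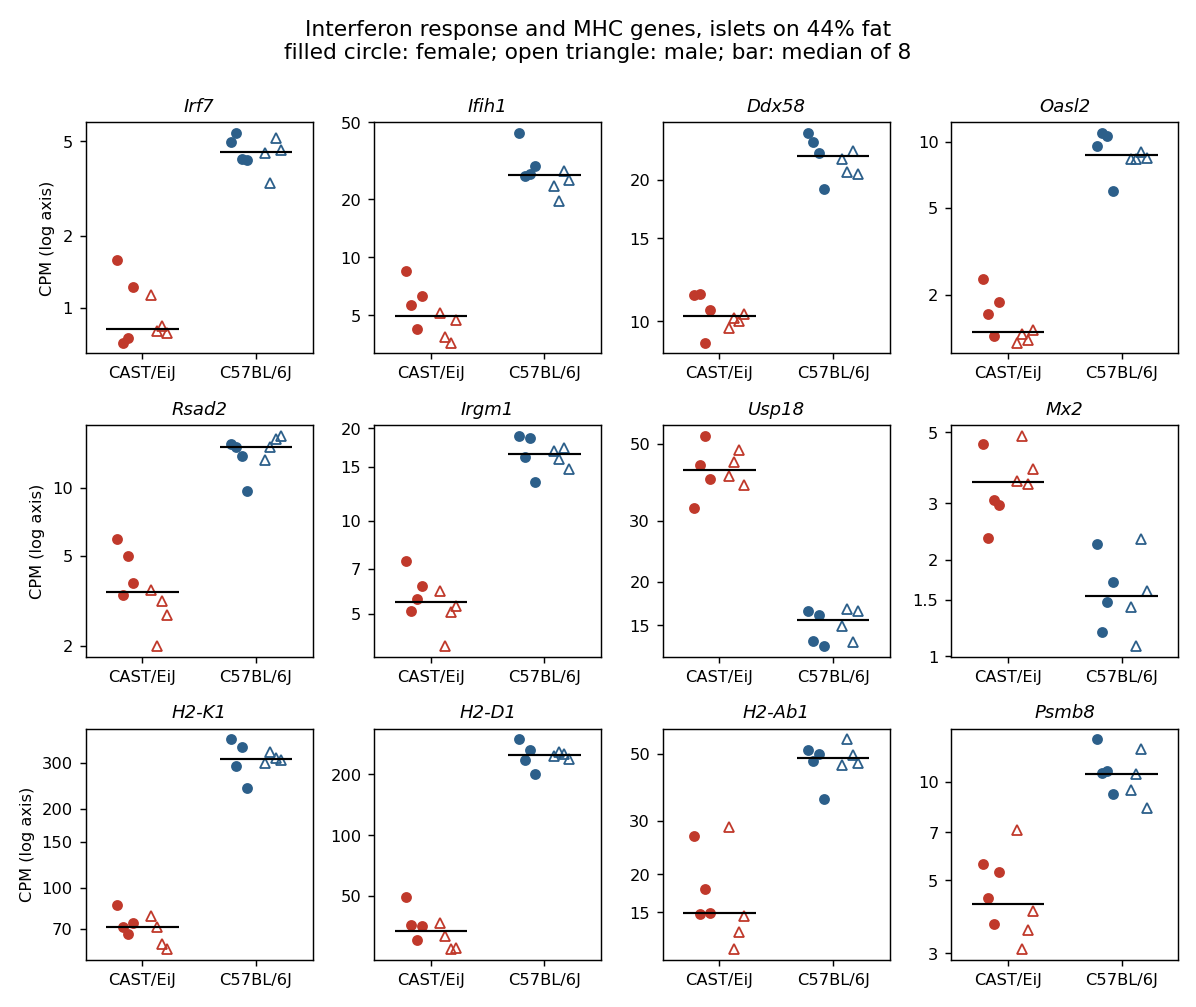
CPM on log axes of 8 interferon response genes and 4 MHC genes in the 8 CAST/EiJ and 8 C57BL/6J high-fat libraries, with females as filled circles, males as open triangles and the median of 8 as a bar. In each of the 12 panels the strains do not overlap: Usp18 and Mx2 are higher in CAST/EiJ and the other 10 are lower.

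MHC and antigen presentation genes were lower in 25 of 33 tested cases and higher in 0, with a median of -0.89. The strains did not overlap for 15 of the lower genes. Class I heavy chain genes were among the most different. H2-D1 (chromosome 17, 35262730 to 35267499) ran from 27.2 to 49.2 CPM in CAST/EiJ (median 33.5) and from 201.2 to 298.5 CPM in C57BL/6J (median 248.9), which are far apart, with a log2 fold change of -2.91 ± 0.08 (adjusted p = 3.14e-12). H2-K1 ran from 58.3 to 86.2 CPM (median 71.0) and from 240.8 to 368.0 CPM (median 309.6), also without overlap (-2.18 ± 0.08). Class I heavy chain genes are known to vary in sequence between mouse strains, and H2-D1 shares 26.9% of its 31-base words with H2-K1. The part of sequence differences in their counts was not tested. B2m, the invariant light chain of class I, overlapped between the strains, with medians of 54.1 and 73.0 CPM, and stood at -0.39 ± 0.11 (adjusted p = 0.00632, and 0.155 with all 45 libraries in the fit).

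Psmb8 and Tap1, which take part in making and moving the peptides, were lower too. Psmb8, a subunit of the immunoproteasome, ran from 3.08 to 7.14 CPM in CAST/EiJ and from 8.31 to 13.5 CPM in C57BL/6J without overlap (-1.25 ± 0.14, adjusted p = 2.72e-06). Tap1, a subunit of the transporter that carries peptides into the endoplasmic reticulum, had medians of 7.08 and 11.2 CPM, without overlap (-0.72 ± 0.08). The class II gene H2-Ab1, made by antigen-presenting cells, had medians of 14.8 and 48.3 CPM, without overlap (-1.53 ± 0.14). Calr, a chaperone of class I assembly and of many other proteins, did not pass (0.13 ± 0.08, adjusted p = 0.203).

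Markers of macrophages, which reside in islets and express class II and interferon genes, were lower in part. Of 20 markers tested 10 were lower and 3 higher, with a median of -0.39. Their summed level ran from 60.4 to 134.6 CPM in CAST/EiJ (median 88.9) and from 87.6 to 172.9 CPM in C57BL/6J (median 127.8), with overlap. Adgre1, the macrophage antigen F4/80, was lower without overlap (-1.60 ± 0.14), at medians of 1.77 and 5.16 CPM, while the lysosomal marker Cd68 did not pass (-0.28 ± 0.14, adjusted p = 0.102). Lymphocyte markers were few: of 20 only 10 had enough counts to be tested, with 1 higher and 1 lower. In bulk islets, fewer cells of a type and less RNA per cell cannot be told apart, and the part of macrophages in the interferon and MHC results was not tested.

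**Figure D3:**
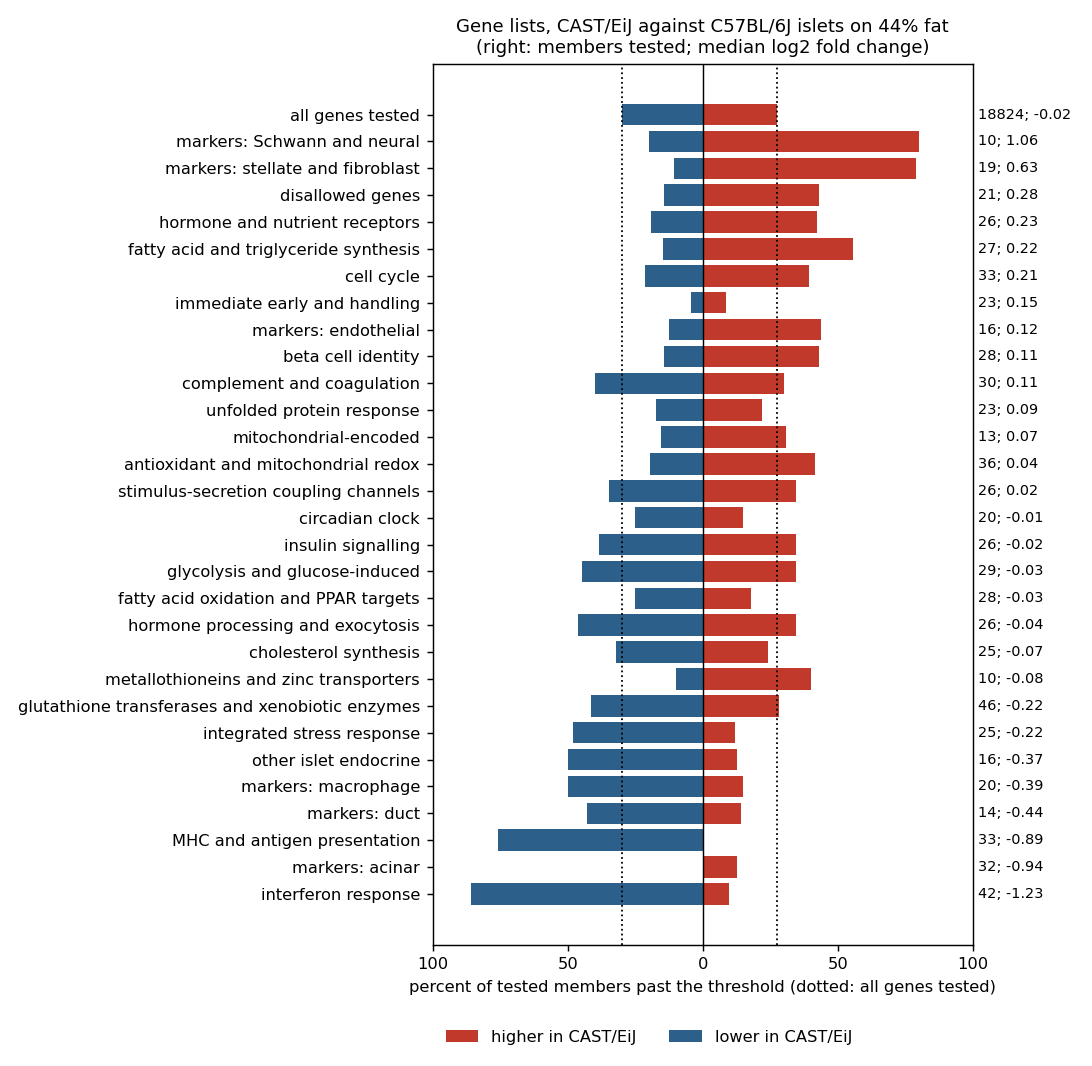
Share of tested members higher (red, right) and lower (blue, left) in CAST/EiJ for each gene list shown. Dotted lines mark the shares over all genes tested, and the right edge gives the members tested and the median log2 fold change. The sex-linked, adipocyte, erythrocyte, lymphocyte and Reg lists are not shown. Interferon response and MHC genes lie farthest beyond the share of all genes that were lower (30.0%), and Schwann and stellate markers farthest beyond the share that were higher (27.4%).

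Insulin transcripts differed little between the strains, and several regulators of beta cell identity were higher in CAST/EiJ. Of 28 identity genes 12 were higher and 4 lower, with a median of 0.11, and none differed 2-fold. Ins2 overlapped fully, from 55380 to 80700 CPM in CAST/EiJ and from 50660 to 78360 CPM in C57BL/6J, at 0.01 ± 0.16 (adjusted p = 0.961). Ins1 (chromosome 19, 52264323 to 52265456) was higher by 0.42 ± 0.14 (adjusted p = 0.0183), from 37270 to 49920 CPM against 25460 to 36830 CPM with no overlap, and this call was lost without the 3 CAST/EiJ female libraries (0.42, adjusted p = 0.0878) and without female 4 alone (adjusted p = 0.0571). Iapp, the amyloid peptide secreted with insulin, did not pass (-0.17 ± 0.12, adjusted p = 0.236), though DESeq2 called it (adjusted p = 0.0331).

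Among the transcription factors, Pdx1, the master regulator of beta cells, had 152.6 to 343.0 CPM in CAST/EiJ (median 245.0) and 113.3 to 165.7 CPM in C57BL/6J (median 136.3). The ranges met only at the lowest CAST/EiJ library, and the log2 fold change was 0.78 ± 0.10 (adjusted p = 1.00e-05). Mafa, the factor of mature beta cells that activates insulin genes, had medians of 79.8 and 43.1 CPM with a similar overlap (0.86 ± 0.09, adjusted p = 2.35e-06). Its difference was 1.31 in females and 0.41 in males, and the test for a dependence on sex did not pass (adjusted p = 0.16). Nkx2-2 (0.76 ± 0.09, no overlap) and Nkx6-1 (0.37 ± 0.08) were higher as well. Rfx6, another transcription factor of the list, was lower (-0.36 ± 0.10, adjusted p = 0.00509). Its medians were 79.7 CPM in CAST/EiJ and 105.9 CPM in C57BL/6J, with overlap. Ucn3, a peptide of mature beta cells, stood at 0.42 ± 0.08.

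Glucose sensing genes split. Slc2a2, the glucose transporter GLUT2, ran from 1017 to 1440 CPM in CAST/EiJ and from 537.2 to 950.7 CPM in C57BL/6J without overlap (0.57 ± 0.11, adjusted p = 3.60e-04). G6pc2, an islet glucose-6-phosphatase, was lower (-0.54 ± 0.14, adjusted p = 0.00375). Trpm5, a cation channel that amplifies glucose-induced depolarisation, had medians of 232.5 and 127.1 CPM without overlap (0.93 ± 0.09, adjusted p = 8.80e-07).

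Transcripts of the other islet hormones were lower in CAST/EiJ, apart from glucagon and ghrelin. Of 16 other endocrine genes 8 were lower and 2 higher, with a median of -0.37. Sst, somatostatin of delta cells (chromosome 16, 23889581 to 23890844), ran from 1618 to 2174 CPM in CAST/EiJ (median 1853) and from 2353 to 5341 CPM in C57BL/6J (median 3342). The strains were apart at -0.82 ± 0.12 (adjusted p = 3.83e-05). Hhex, the delta cell factor, was lower without overlap too (-1.03 ± 0.16), at medians of 6.96 and 13.3 CPM.

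Ppy, pancreatic polypeptide, varied most within a strain, from 159.5 to 2029 CPM in CAST/EiJ and from 897.6 to 4167 CPM in C57BL/6J. Despite that overlap it passed at -1.65 ± 0.38 (adjusted p = 0.0019), and Pyy, peptide YY of the same family, at -1.16 ± 0.22. Gcg, of alpha cells, did not pass (-0.14 ± 0.20, adjusted p = 0.588), with medians of 24820 and 27580 CPM, and C57BL/6J spread more widely, from 11760 to 62330 CPM. The alpha cell factor Irx2 (-0.31 ± 0.15) did not pass either, while Pou3f4, another alpha cell factor, was higher without overlap (1.34 ± 0.27), at medians of 5.37 and 2.14 CPM. Ghrl, ghrelin of epsilon cells, had medians of 11.3 and 4.84 CPM with overlap (1.26 ± 0.27).

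Secretory granule genes moved in both directions: of 26 genes of hormone processing and exocytosis 9 were higher and 12 lower. The granins, proteins that help pack hormones into granules, differed most and in opposite directions. Scg2, secretogranin 2 (chromosome 1, 79434669 to 79440120), ran from 15920 to 23820 CPM in CAST/EiJ (median 18450) and from 4616 to 8265 CPM in C57BL/6J (median 6969). Chga, chromogranin A (chromosome 12, 102554969 to 102565027), ran from 4341 to 5872 CPM (median 5006) and from 8438 to 12970 CPM (median 10790). Neither overlapped, with log2 fold changes of 1.43 ± 0.13 for Scg2 (adjusted p = 4.92e-07) and -1.17 ± 0.10 for Chga (adjusted p = 3.37e-07). Scg5, a chaperone of the prohormone convertase PC2, was higher (0.99 ± 0.08), and Syt13, an atypical synaptotagmin, was lower (adjusted p = 6.64e-08), both without overlap.

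Of 26 channels of stimulus-secretion coupling 9 were higher and 9 lower. Kcnk16, the potassium channel TALK-1 of beta cells, ran from 19.7 to 30.7 CPM in CAST/EiJ and from 63.6 to 80.7 CPM in C57BL/6J, with a wide gap between them (-1.58 ± 0.07, adjusted p = 1.51e-10). Scn3a, a voltage-gated sodium channel, was lower (-1.67 ± 0.07), and Trpm2, a cation channel opened by oxidative stress, was higher (1.24 ± 0.09), as was the calcium channel subunit Cacnb3 (1.14 ± 0.07), all without overlap. Kcnj11, the pore of the ATP-sensitive potassium channel, did not pass (-0.10 ± 0.05, adjusted p = 0.0864).

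Receptors leaned higher, with 11 of 26 higher and 5 lower (median 0.23). Glp1r, the receptor of the incretin GLP-1, was an exception, from 82.3 to 127.4 CPM in CAST/EiJ and from 136.1 to 235.0 CPM in C57BL/6J, without overlap (-0.78 ± 0.09, adjusted p = 4.92e-06). Gipr, the receptor of the other incretin, stood the other way (0.34 ± 0.09, adjusted p = 0.00608) with overlap. Gcgr, the glucagon receptor (1.10 ± 0.08), and Ffar1, a fatty acid receptor that augments insulin secretion (0.84 ± 0.08), were higher without overlap, and Galr1, a receptor of the inhibitory peptide galanin, was lower (-1.32 ± 0.09). Htr1d, a serotonin receptor, ran from 0.837 to 2.36 CPM in CAST/EiJ and from 0 to 0.276 CPM in C57BL/6J.

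**Figure D4:**
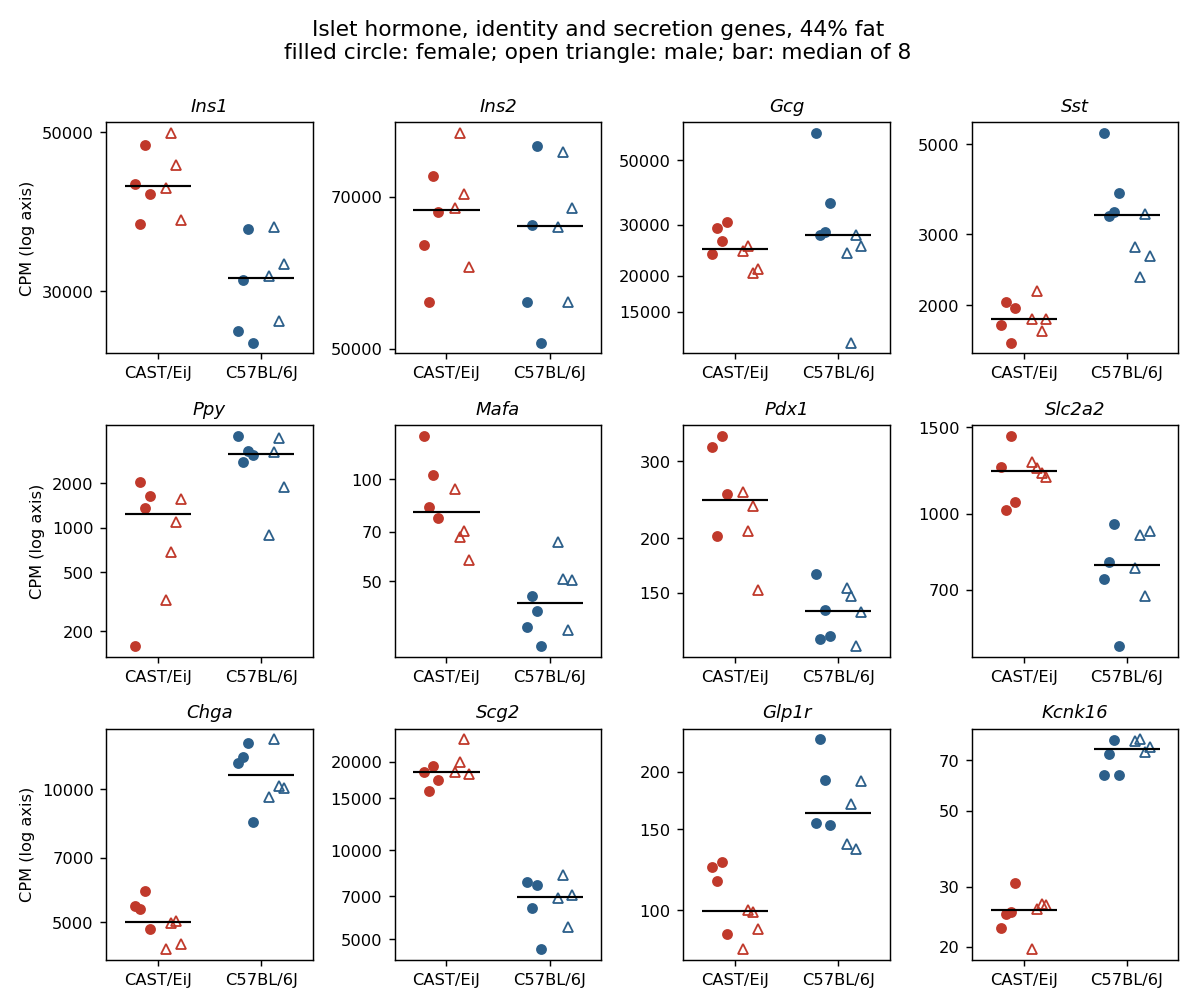
CPM on log axes of 12 islet genes in the 16 high-fat libraries, with females as filled circles, males as open triangles and the median of 8 as a bar. Ins2 and Gcg overlap between strains, Sst, Chga, Glp1r and Kcnk16 lie lower in all CAST/EiJ libraries, and Ins1, Slc2a2 and Scg2 lie higher in all of them.

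Redox and aldehyde genes included some of the clearest single differences. Of 36 antioxidant and mitochondrial redox genes 15 were higher and 7 lower. Nnt, the mitochondrial transhydrogenase that makes NADPH and of which C57BL/6J is known to carry a deletion (chromosome 13, 119335448 to 119408997), ran from 87.1 to 114.5 CPM in CAST/EiJ (median 96.6) and from 26.8 to 33.0 CPM in C57BL/6J (median 30.8). The gap was wide, at 1.66 ± 0.05 (adjusted p = 1.52e-11), and Nnt shares 47.8% of its 31-base words with a second entry of the same symbol. Nqo1, a quinone reductase, was higher without overlap (1.38 ± 0.10), with 0.90 in females and 1.87 in males. The test for a dependence on sex did not pass for Nqo1 (adjusted p = 0.16). Of 23 alternative fits only 1, DESeq2, called it. Txnip, the glucose-induced inhibitor of thioredoxin, was lower without overlap (-0.88 ± 0.10), at medians of 259.1 and 446.2 CPM.

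Aldh1a3, an aldehyde dehydrogenase known as a marker of beta cells that lose identity, ran from 10.7 to 24.1 CPM in CAST/EiJ (median 15.5) and from 1.84 to 5.33 CPM in C57BL/6J (median 3.23). The strains were apart (2.21 ± 0.13, adjusted p = 3.81e-09), and high-fat libraries of the third strain, NZO/HlLtJ, had a median of 144.2 CPM. Its relative Aldh1a1 was higher too (2.11 ± 0.39, adjusted p = 3.36e-04) with a small overlap. Disallowed genes, which beta cells normally keep low, were higher in 9 of 21 cases and lower in 3 (median 0.28); several of them, such as Cxcl12, Mylk and Smoc2, are also expressed by connective tissue cells.

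Lipid synthesis genes leaned higher in CAST/EiJ. Of 27 genes of fatty acid and triglyceride synthesis 15 were higher and 4 lower, with a median of 0.22, and within the number ranges 6, 11 and 8 were higher. Scd2, a stearoyl-CoA desaturase, ran from 414.0 to 615.5 CPM in CAST/EiJ and from 132.7 to 245.0 CPM in C57BL/6J, without overlap (1.32 ± 0.10, adjusted p = 5.68e-08). Fads2, the desaturase of polyunsaturated fatty acids, had medians of 29.7 and 11.3 CPM, also apart (1.38 ± 0.09), and Elovl7, an elongase, was lower (-1.90 ± 0.11). Pparg, the lipid-sensing nuclear receptor, had medians of 1.93 and 6.41 CPM (-1.59 ± 0.10, no overlap). Ppara, the receptor that induces fatty acid oxidation, was low in both strains. It ran from 0.0385 to 0.6895 CPM in CAST/EiJ and from 0.6851 to 1.40 CPM in C57BL/6J, with a slight overlap. Its log2 fold change was -1.98 ± 0.36, and -3.45 without the 3 libraries. In the latter fit the only CAST/EiJ female is female 3, which had 0.0385 CPM, the lowest value. Among 29 glycolysis and glucose-induced genes 10 were higher and 13 lower, with the enolase gene Eno2 at 1.58 ± 0.05 and Pfkfb2, which drives glycolysis, at 1.16 ± 0.07.

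The arms of the stress response differed in their counts. Of 25 integrated stress response genes 12 were lower and 3 higher (median -0.22), with 8 lower without the 3 libraries and 5, 4 and 6 within the number ranges. Chac1, which degrades glutathione, ran from 7.01 to 24.1 CPM in CAST/EiJ and from 22.6 to 46.9 CPM in C57BL/6J (-1.30 ± 0.20, adjusted p = 5.84e-05), with a slight overlap. Ddit3, the factor CHOP, stood at -0.41 ± 0.14 (adjusted p = 0.0228), and the call was lost without the 3 libraries (adjusted p = 0.241), without CAST/EiJ high-fat female 1 (0.0577) and without CAST/EiJ high-fat male 1 (0.061). Of 23 unfolded protein response genes 5 were higher and 4 lower, below the shares of all genes. Hspa5, the chaperone BiP, overlapped (-0.04 ± 0.11, adjusted p = 0.776). Ern1, the sensor IRE1 alpha, was lower without overlap (-0.77 ± 0.04), from 123.8 to 158.8 CPM against 218.9 to 263.4 CPM, and its paralog Ern2 ran from 0.215 to 0.689 CPM in CAST/EiJ and from 0.0105 to 0.141 CPM in C57BL/6J.

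Cell division genes gave 13 higher and 7 lower of 33, with medians of 0.39 in females and -0.01 in males. Cdk6, a G1 kinase, ran from 13.0 to 17.4 CPM in CAST/EiJ and from 2.32 to 6.30 CPM in C57BL/6J, without overlap (2.19 ± 0.18, adjusted p = 1.05e-07). Ccnd1, the cyclin partner of that kinase, was lower without overlap (-0.90 ± 0.10). Mki67, a marker of dividing cells, overlapped widely and was called at 0.41 ± 0.16 (adjusted p = 0.0388), but not without the 3 libraries (0.27, adjusted p = 0.34), and leaving out any 1 of 7 single libraries ended the call as well.

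Genes of connective tissue and nerve cells, which an islet preparation also holds, were mostly higher. Of 19 stellate and fibroblast markers 15 were higher and 2 lower (median 0.63), with 1, 13 and 16 higher within the number ranges and 9 without CAST/EiJ high-fat male 4. Thy1, a surface protein of fibroblasts and neurons, had medians of 30.0 CPM in CAST/EiJ and 7.57 CPM in C57BL/6J (1.88 ± 0.11), while Rgs5, a pericyte marker, was lower (-1.23 ± 0.05), both without overlap. The list's summed level overlapped, from 615.3 to 944.8 CPM against 408.4 to 822.2 CPM. Of 10 Schwann and neural markers 8 were higher and 2 lower (5 higher without the 3 libraries), among them S100b at 1.79 ± 0.25, yet the myelin gene Mbp was lower (-0.39 ± 0.05) and the summed levels overlapped, from 93.1 to 120.3 CPM and from 100.2 to 124.6 CPM. The 8 higher Schwann and neural markers all overlapped between the strains, while the 2 lower ones did not. The medians of their summed levels were 110.2 CPM in CAST/EiJ and 108.9 CPM in C57BL/6J. Of 16 endothelial markers 7 were higher and 2 lower, and of 14 duct markers 2 were higher and 6 lower.

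Insulin signalling genes gave 9 higher and 10 lower of 26, with 3 lower when all 45 libraries entered the fit. Irs1, the adaptor below the insulin receptor, had medians of 39.7 and 20.8 CPM without overlap (0.80 ± 0.05, adjusted p = 1.84e-08), and the receptor Insr, counted with the receptors, had 82.8 and 112.0 CPM, also apart (-0.53 ± 0.04). Fatty acid oxidation genes gave 5 higher and 7 lower of 28, and cholesterol synthesis genes 6 higher and 8 lower of 25 (5 lower with all 45 libraries in the fit). Of the cholesterol genes Pmvk, a kinase of the mevalonate pathway, was lower without overlap (-1.30 ± 0.07).

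Complement and coagulation genes gave 9 higher and 12 lower of 30. Plat, tissue plasminogen activator, ran from 23.6 to 40.9 CPM in CAST/EiJ and from 6.66 to 10.5 CPM in C57BL/6J (1.90 ± 0.09, adjusted p = 3.78e-10). Cfi, the protease that inactivates complement C3b, had medians of 0.461 and 2.20 CPM (-2.47 ± 0.28), and neither gene overlapped. The osteopontin gene Spp1, taken here as a duct marker, ran from 115.2 to 262.2 CPM against 27.6 to 101.3 CPM (2.13 ± 0.26), while the tight junction gene Cldn4 was lower (-1.83 ± 0.10), both without overlap. Of 20 clock genes 3 were higher and 5 lower, and of 10 metallothionein and zinc transporter genes 4 were higher and 1 lower.

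Immediate early genes, which respond to handling of tissue, showed few calls, 2 higher and 1 lower of 23, with medians of 0.67 in females and -0.44 in males. Fos varied within both strains, from 70.8 to 569.0 CPM and from 49.9 to 1094 CPM, and did not pass (0.38 ± 0.40, adjusted p = 0.44). Nr4a2, an orphan nuclear receptor induced by cAMP and calcium, was the lower member, without overlap (-1.53 ± 0.17, adjusted p = 2.55e-06). Of the 6 Reg genes of pancreatic injury 0 were higher and 2 lower, and their levels spanned a wide range within each strain: Reg3b ran from 0 to 45.8 CPM in CAST/EiJ and from 0.605 to 191.7 CPM in C57BL/6J. The call for Reg3b (-4.66 ± 1.54, adjusted p = 0.0186) was lost without C57BL/6J high-fat female 2 (adjusted p = 0.063) or male 1 (0.0578). The acinar list had a median of -0.94 with 0 lower calls, and 4 of 32 were called higher, all with overlap. These were the proteases Prss1, Ctrc and Cela3a and the amylase copy Amy2b, annotated as a pseudogene. Prss1 and Amy2b share over 50% of their words with another gene and are uncertain. With the mean of the acinar list itself as a covariate 23 of its genes were called lower. The pancreatic amylase copies Amy2a3 and Amy2a4, which are not on the list, were lower without overlap and had the largest lower folds of the protein-coding genes named by size. Amy2a3 had medians of 0.548 CPM in CAST/EiJ and 9161 CPM in C57BL/6J (-12.23 ± 1.85), and Amy2a4 had 1.74 and 3184 CPM (-10.40 ± 1.62), while Amy2b had 4014 and 22.7 CPM (6.10 ± 1.21). All words of Amy2a3 and of Amy2a4 occur in other genes (100.0%), and both are uncertain.

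The genes named here are taken from the 10 protein-coding genes per direction with the largest folds, without overlap between strains and with a mean log2 CPM no lower than 3, and the 5 with the smallest p beyond them. Kcnj5, a G protein-gated potassium channel (chromosome 9, 32314783 to 32344237), ran from 16.3 to 41.6 CPM in CAST/EiJ (median 21.7) and from 0.0549 to 0.341 CPM in C57BL/6J (median 0.211), at 7.10 ± 0.20 (adjusted p = 4.17e-12). Tas1r1, a subunit of the umami taste receptor, ran from 39.3 to 91.0 CPM and from 0.335 to 0.967 CPM (6.79 ± 0.25, adjusted p = 4.45e-11). Prkg2, the cGMP-dependent protein kinase II, had medians of 68.8 and 1.01 CPM (5.71 ± 0.20). All 3 were also low in high-fat NZO/HlLtJ islets, at medians of 0.560, 0.983 and 0.285 CPM.

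Tagln3, a neuronal transgelin, had medians of 100.4 CPM in CAST/EiJ and 2.17 CPM in C57BL/6J (5.69 ± 0.16), Fam84a 376.6 and 7.48 CPM (5.63 ± 0.20), and Serpina3n, an acute-phase protease inhibitor, 52.4 and 1.13 CPM (5.48 ± 0.27). Among the genes with the smallest p, Galnt9, an enzyme of O-linked glycosylation, ran from 48.5 to 85.5 CPM against 3.11 to 8.97 CPM (3.61 ± 0.07, adjusted p = 1.41e-13). Sncb, beta-synuclein, ran from 90.2 to 118.2 CPM against 14.0 to 16.6 CPM (2.72 ± 0.06, adjusted p = 2.43e-13).

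In the other direction the 3 CAST/EiJ female libraries set the upper end of the range, for Aqp4 only females 1 and 4. Olfm4, a secreted glycoprotein of the gut and pancreas (chromosome 14, 80000302 to 80021930), had a CAST/EiJ median of 0.0386 CPM with 1.80 CPM in high-fat female 1, against 13.4 to 24.9 CPM in C57BL/6J. Folr1, a folate receptor, ran from 0.0118 to 1.97 CPM in CAST/EiJ and from 14.2 to 36.5 CPM in C57BL/6J, at -6.33 ± 0.37 with all libraries and -7.19 without the 3. Naip2, a sensor of bacterial proteins in the inflammasome, ran from 0.245 to 4.90 CPM and from 35.0 to 52.5 CPM, at -5.70 ± 0.28 and -6.56 without the 3. Capsl, a calcium-binding protein (-5.17 ± 0.27, and -6.06 without the 3), showed the same pattern. Aqp4, a water channel (-5.24 ± 0.27, and -5.93 without the 3), had 1.777 CPM in female 1 and 1.585 CPM in female 4. Its level in female 2 was 0.506 CPM, below CAST/EiJ male 2 at 0.613 CPM. Folr1 had a median of 0.318 CPM in high-fat NZO/HlLtJ islets, where Naip2 had 49.3 CPM and Aqp4 27.3 CPM.

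Ugt2b34, a glucuronosyltransferase, was lower with one of the smallest p, from 7.51 to 13.9 CPM against 86.2 to 104.4 CPM (-3.15 ± 0.06, adjusted p = 9.16e-14). Mttp, which loads lipid onto lipoproteins (-2.99 ± 0.08), and Mreg, a protein of melanosome and lysosome transport (-2.41 ± 0.06), were lower without overlap. In the list of glutathione transferases and xenobiotic enzymes, to which such enzymes belong, 13 of 46 were higher and 19 lower, with Gstm7 at 2.27 ± 0.16 and Akr1c12 at -2.72 ± 0.08.

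Many of the largest folds fell on genes with near-identical copies. Of 1312 genes with 50% or more of their 31-base words found in another gene, 18.5% were called with a difference of at least 8-fold, against 3.02% of 17432 genes that share less. Pairs were taken where a gene that differed at least 8-fold had 30% or more of its words in a copy called in the opposite direction, which gave 87 pairs. Where the copy is abundant and itself differs by less than 2-fold, the sum of the pair hardly moves whatever the gene does, so sums were counted only for the 30 pairs in which both differed at least 2-fold. The summed CPM differed by less than 2-fold in 20 of the 30 and by more in 10, and Gm10053 was the copy in 2 pairs. Because pairs were picked for opposite directions, a smaller difference of the sum is in part built in, and the cause was not tested. Rpl17, a protein of the large ribosomal subunit, had medians of 189.0 CPM in CAST/EiJ and 6.73 CPM in C57BL/6J, while its pseudogene Rpl17-ps8 had 1.12 and 196.4 CPM. Together they had 193.9 and 202.6 CPM. The small subunit gene Rps13 had 15.3 and 111.6 CPM against 93.8 and 0.886 CPM for Rps13-ps1, and the pair summed to 111.0 and 113.2 CPM.

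Some metabolic enzymes also have near-identical copies, though here the abundant copy differed by less than 2-fold. Eno1b, with 36.5 CPM in CAST/EiJ and 0.0987 CPM in C57BL/6J, and the glycolytic enolase Eno1, with 94.8 and 124.7 CPM, summed to 134.3 and 124.8 CPM. Amd2 and Amd1, S-adenosylmethionine decarboxylases of polyamine synthesis, summed to 117.2 and 102.1 CPM. The sum depended on the copy for mt-Co2, subunit 2 of the mitochondrial cytochrome c oxidase, at 4.84 CPM in CAST/EiJ and 1025 CPM in C57BL/6J. With its nuclear copy Gm13341 it summed to 168.5 and 1026 CPM, and with the copy Gm28661 to 1642 and 2140 CPM. Genes in these pairs are uncertain as single genes. Of the 36 interferon response genes that were lower, 32 share less than 50% of their words with another gene.

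**Figure D5:**
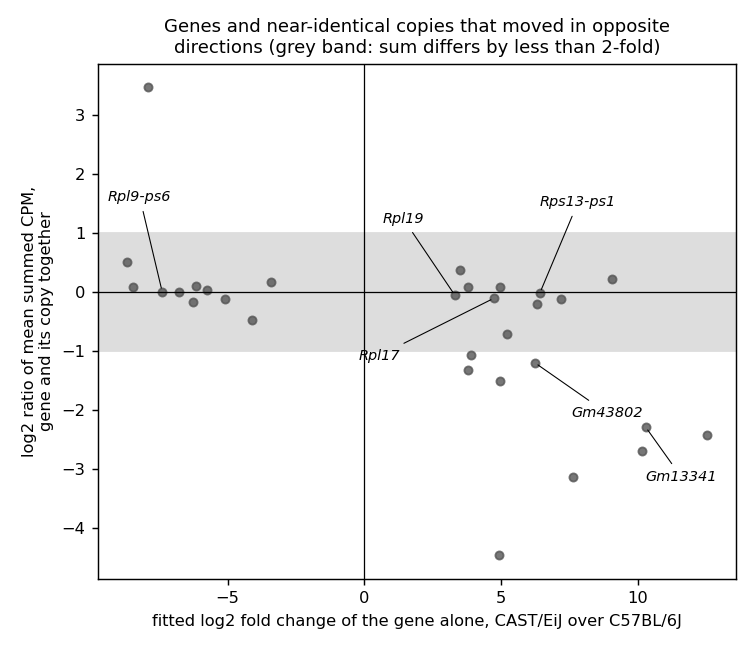
Fitted log2 fold change of a gene (x) against the log2 ratio of mean summed CPM of the gene and its near-identical copy (y), for the 30 pairs called in opposite directions in which both differ at least 2-fold. In 20 pairs the sum lies inside the grey band of less than 2-fold and in 10 outside it; fitted folds of genes near 0 CPM depend on the prior count.

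Genes seen in 1 strain only were few. With at most 3 counts in all 8 libraries of one strain and at least 1 CPM in all 8 of the other, 10 genes were found only in CAST/EiJ, of which 2 are annotated as protein-coding, and 0 only in C57BL/6J. All 10 are uncertain, with 50% or more of their words in another gene. AK157302 was the highest of them, from 11.0 to 14.2 CPM in CAST/EiJ and at most 0.022 CPM in C57BL/6J. The 0 for C57BL/6J rests on all 8 CAST/EiJ libraries, with high-fat females 1, 2 and 4 among them. Iigp1, from 3.35 to 9.42 CPM in C57BL/6J, was at 0 in CAST/EiJ female 3 and the CAST/EiJ males. It missed the rule only through females 1, 2 and 4, and a count without them was not made.

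The strain difference was tested for a dependence on sex, as the male minus the female difference, and 4 genes passed (0.0212% of 18824; 1345 at an unadjusted p under 0.05; 103 by DESeq2). This count rested on single libraries: it was 1 to 40 with 1 library left out, 40 without CAST/EiJ high-fat female 3 and 17 without C57BL/6J high-fat male 1, and 31 with all 45 libraries. Tsix, the antisense transcript of Xist, differed most: the strain difference was 0.21 in females and 5.40 in males, and the difference between the sexes was 5.19 ± 0.42 (adjusted p = 1.38e-04). Tsix overlaps Xist on the opposite strand, and without knowledge of strand use in counting their reads cannot be told apart. Rab24, a GTPase of autophagy that shares 54.4% of its words with Prelid1 and is uncertain, stood at -0.91 ± 0.12, the membrane protein gene Tmem160 at -1.27 ± 0.18 and Gm16759 at -3.43 ± 0.49. Without the 3 CAST/EiJ females 6 genes passed, with Tsix at 4.85 (adjusted p = 0.0208) and Rab24 at -1.03 (adjusted p = 0.0428), while Tmem160 (adjusted p = 0.211) and Gm16759 (adjusted p = 0.202) did not.

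The same strain difference on the 10% fat diet was fitted on 15 other libraries and called 9163 of 18906 genes (48.5%). Of these, 4359 were higher in CAST/EiJ and 4804 lower, and list counts on 10% fat are read against these numbers. Of the genes called on 44% fat and also tested on 10% fat, 98.7% had the same sign there, and 99.6% of those with at least 2-fold. Across 18560 genes tested in both, Pearson's r of the log2 fold changes was 0.955, given as a description, since genes are not independent. Interferon response genes were lower in 29 of 42 cases on 10% fat (median -0.93) and MHC genes in 19 of 33 (median -0.60). H2-D1 stood at -2.81 there, Nnt at 1.62, Scg2 at 1.43, Chga at -1.14, Sst at -0.41 and Ins1 at 0.52.

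No gene passed the test of the difference between the diets, (CAST/EiJ minus C57BL/6J on 44% fat) minus the same on 10% fat, in 31 libraries: 0 of 19772 (0.0%), with 855 at an unadjusted p under 0.05 and 15 by DESeq2. The smallest p belonged to 9930111J21Rik2 and 2210418O10Rik (adjusted p = 0.202 for each), both near 0 in CAST/EiJ and uncertain because of copies. The cell division genes Kif11 (-0.86 ± 0.17, adjusted p = 0.248), Pbk and Ccnb2 were among those with the smallest p of genes with a lower difference on 44% fat, and none of them passed. The list of cell division genes had 20 of 33 higher in CAST/EiJ on 10% fat (median 0.78) against 13 on 44% fat (median 0.21). Over all genes tested, 4359 of 18906 were higher on 10% fat and 5163 of 18824 on 44% fat.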

How the data were processed

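Islet RNA was sequenced from polyadenylated transcripts, and the authors deposited 1 table of expected counts per gene and 1 table of variance-stabilised log2 values for the 45 samples. The submitters' processing notes name GRCm38 and DESeq2 without a role. Aligner, counter, strand use and the sequence to which CAST/EiJ reads were aligned: not given in the sources used here. Deposited expected counts are mostly whole (80.6% of values within 1e-06) and were rounded. Genes were tested with edgeR 4.0.16 in R 4.3.3: TMM factors, filterByExpr with a minimum count of 10, and the quasi-likelihood F test over the 16 libraries with strain-by-sex groups and the number range of the identifiers as terms. P-values were adjusted over all genes tested by Benjamini-Hochberg at 0.05, and each SE is the absolute log2 fold change divided by the square root of F. CPM used TMM factors over all 45 libraries. The sex and diet dependence of the strain difference were interaction contrasts in 16 and 31 libraries. Alternatives used DESeq2 1.42.0, limma 3.58.1 on the authors' deposited log2 values, other factors, filters, terms and samples, and each library left out. The edgeR fit of the strain difference was also run on simulated counts, with far fewer changed genes than were called here. That outcome is not reported here, and no result rests on it. No 2 replicates agreed within sampling noise (lowest chi-square per degree of freedom 63.3 over 24 pairs within a group). Shared sequence was counted as 31-base words of GENCODE M21 transcripts, and genes sharing at least 50% are called uncertain. Protein sequences were not used here.

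The members and lists were chosen with earlier results of these data known. Genes were named by a rule: the 10 largest folds and 5 smallest p per direction, the 2 most different called members per direction of each list with a fixed set of islet and immune genes, 4 genes per direction of each interaction, and genes detected in 1 strain. Further list members (such as Irf7, Isg15, Tap1, Pyy and Kcnj11) were named after their values were seen, and some genes of the rule are not reported here. Genes of the promoters were chosen by adjusted p.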

Additional observations from a re-analysis of the deposited data

Results flagged for a closer look

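Levels of the genes described were checked for a single library far from the other 7 of its strain, by the gap to the nearest library relative to the range. Of 212 strain groups 19 had one. Chance alone can give such groups, at a rate that was not measured for these values. In C57BL/6J, high-fat female 1 was high for Ifih1 (44.2 CPM), Gcg (62330 CPM) and Cldn4 (81.3 CPM), male 3 for Iigp1 (9.42 CPM) and Prkg2 (2.57 CPM), male 1 for Aldh1a1 (10.9 CPM), Cdk6 (6.30 CPM), Nr4a2 (15.9 CPM) and Reg3b (191.7 CPM), and male 2 for Amd2 (0.505 CPM). In CAST/EiJ, female 1 was high for Olfm4 (1.80 CPM), Folr1 (1.97 CPM), Naip2 (4.90 CPM), mt-Co2 (135.7 CPM) and H2-D1 (49.2 CPM). CAST/EiJ female 2 was high for Reg3b (45.8 CPM), male 1 for B2m (84.3 CPM), male 2 for Aldh1a1 (39.3 CPM) and male 4 for Aldh1a3 (24.1 CPM).

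The strain difference itself differed between the sexes by test for Tsix (5.19), Rab24 (-0.91), Tmem160 (-1.27) and Gm16759 (-3.43), as male minus female log2 differences. Tsix was called in each of 23 alternative fits, Rab24 in 14, Gm16759 in 10 and Tmem160 in 9.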

How the results depend on the processing

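Counts over all genes and over the 9 lists followed here stayed within 1.5 times under DESeq2, RLE factors, no filter, no number range term, the acinar covariate, all 45 libraries and no acinar-rich libraries, apart from those given here. Of 68 counts, 34 lists in both directions, 52 did so in all of these fits and 16 did not. The latter include insulin signalling (10 lower, 3 with all 45 libraries), cholesterol synthesis (8 lower, 5 with all 45) and acinar genes (0 lower, 23 with the covariate made from the same list), and the rest had main counts of 5 or fewer. With limma, 1400 genes differed at least 2-fold. Within range 1 alone, with 4 libraries, 1037 genes were higher, 1111 lower and 1428 at least 2-fold different, and called members numbered 16 interferon, 9 MHC, 5 integrated stress and 12 xenobiotic genes lower, 3 endocrine lower, and 3 beta cell, 1 stellate and 6 lipid synthesis genes higher. Within range 2, 7 beta cell and 5 Schwann genes were higher and 4 integrated stress genes lower; within range 3, 2767 genes were higher and 3130 lower, with 6 beta cell, 5 Schwann and 8 lipid synthesis genes higher and 6 integrated stress genes lower. Fewer libraries enter these fits. Without CAST/EiJ high-fat females 1, 2 and 4, 5 Schwann genes were higher.

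The sex dependence was called for 103 genes with DESeq2, 1 without the number range term, 31 with all 45 libraries, 6 without the 3 females and 1 to 40 with 1 library left out. The diet dependence was called for 15 genes with DESeq2, 3 with all 45 libraries and 0 to 12 with 1 left out. With 1 library left out, 4781 to 5155 genes were higher, 5336 to 5629 lower and 3387 to 3624 at least 2-fold different, with 35 to 36 interferon and 25 to 28 MHC genes lower, 8 to 14 integrated stress genes lower and 9 to 17 stellate genes higher. In the first range 7 genes had the other sign: Mt2 (-0.045), Mt1 (-0.229), Nr1d2 (-0.063), Krt19 (-0.596), Cd14 (-0.475), Cd52 (0.417) and Plin4 (-0.501). Of 180 named genes followed, 87 kept their call and direction in every alternative fitted, and the cause of the changes was not tested. No paired analysis was possible because the labels give no replicate numbers to pair libraries by; the number range entered the fits as a block.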
